A study of Mus musculus with 18 samples.

Results

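Reelin signalling in the embryonic mouse neocortex was followed through 4 genes, Reln, Vldlr, Lrp8 and Dab1, out of 15063 genes named on the array. They were chosen by their symbol in the platform annotation, which gave 6 of 21766 probes that are not control spots: 2 probes for Reln, 2 for Dab1 and 1 each for Vldlr and Lrp8. All 6 had a value on all 18 arrays, so all 6 were tested, and none of their values was missing or capped. Each gene's probes are given separately. Neither the sequences of the probes nor the genome build behind the array is given in the sources used here, so no position in the gene or genome is stated.

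Reelin is a large secreted glycoprotein of the marginal zone of the cortex, made chiefly by Cajal-Retzius cells, early-born neurons that lie just under the pial surface and that arise at the borders of the cortex, among them the caudomedial cortical hem. It binds the lipoprotein receptors encoded by Vldlr and Lrp8 (the product of Lrp8 is also called ApoER2) on radial glia and migrating neurons. The receptors hand the signal to Dab1, a cytoplasmic adaptor that Src-family kinases then phosphorylate. Mice that lack reelin, Dab1 or both receptors build a cortex whose layers are largely inverted.

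The tissue was neocortex of MF1 embryos, an outbred mouse stock, at E13.5, in mid-gestation, when the wall holds mostly progenitors and the first neurons. Total RNA was taken from 3 rostral pools (R1, R2, R3), 3 middle pools (M1, M2, M3) and 3 caudal pools (C1, C2, C3), without any genetic change or treatment named in the labels. The embryos numbered 4, and nothing says which of them gave which pool, so p-values here measure the spread between pools, which may be technical. Each pool was hybridised on 4 arrays with 2 dyes, 2 arrays per dye, always against a pool of another region, which gave 6 arrays for every pair of regions. The comparison of regions asks which transcripts are graded along the rostrocaudal axis.

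Each value is a log2 ratio, which was turned into a value per pool relative to the mean of the 9 pools. A value of 0.30 for a pool therefore says nothing of how abundant the transcript was, and levels cannot be set against each other between probes or checked as present or absent. Differences are on the log2 scale, and a positive one means more RNA in the first-named region. That direction is likely rather than stated, since no label gives the numerator of the ratio. It rests on Nr2f1, a nuclear receptor gene known to be high in caudal cortex, which was at -1.02 ± 0.07 in rostral minus caudal pools (SE; limma, adjusted p = 0.0138) and at -1.02 ± 0.17 on its other probe (SE; limma, adjusted p = 0.150). Across all 18525 features tested, 12 passed an adjusted p of 0.05 in rostral against caudal pools (0.0648%), 0 passed in rostral against middle (0%), 0 passed in middle against caudal (0%), and 2 passed the test for any difference among the regions (0.0108%). None of the 6 probes was among them. Since the RNA came from whole tissue, fewer cells of a type and less RNA per cell cannot be told apart in any value below.

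The ligand gene Reln gave different pictures on its 2 probes. On the probe made to record NM_011261 (CG_Mm_3006040_1), rostral pools stood at -0.10, -0.17 and -0.14, middle pools at -0.08, -0.18 and 0.01, and caudal pools at 0.30, 0.07 and 0.31. Every caudal pool lay above every rostral and every middle pool, while rostral and middle pools overlapped. Among the caudal pools C2 was much the lowest and came close to the highest middle pool, M3. The regional means were -0.14 ± 0.03 for rostral, -0.09 ± 0.10 for middle and 0.23 ± 0.13 for caudal pools (SD, n = 3 each).

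By limma, Reln on this probe differed 1.29-fold between rostral and caudal pools, with rostral lower, at -0.36 ± 0.08 on the log2 scale (SE; 95% interval -0.56 to -0.17). The unadjusted p was 0.00282, which ranked 230th of 18525 features, and the adjusted p was 0.227, so the difference did not pass. Middle pools were 1.24-fold lower than caudal ones, at -0.31 ± 0.08 (SE; 95% interval -0.51 to -0.12; limma, unadjusted p = 0.00619, adjusted p = 0.585). Rostral and middle pools were close, with a difference of -0.05 ± 0.08 (SE; 95% interval -0.24 to 0.14; limma, adjusted p = 0.999). In order, Reln on this probe was thus highest in caudal, then in middle, then in rostral pools, with the last pair not separated beyond their spread and in the other order, at 0.051, when arrays were not centred. The test for any difference among the 3 regions gave an unadjusted p of 0.00566 and an adjusted p of 0.372 (limma, moderated F).

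**Figure D1:**
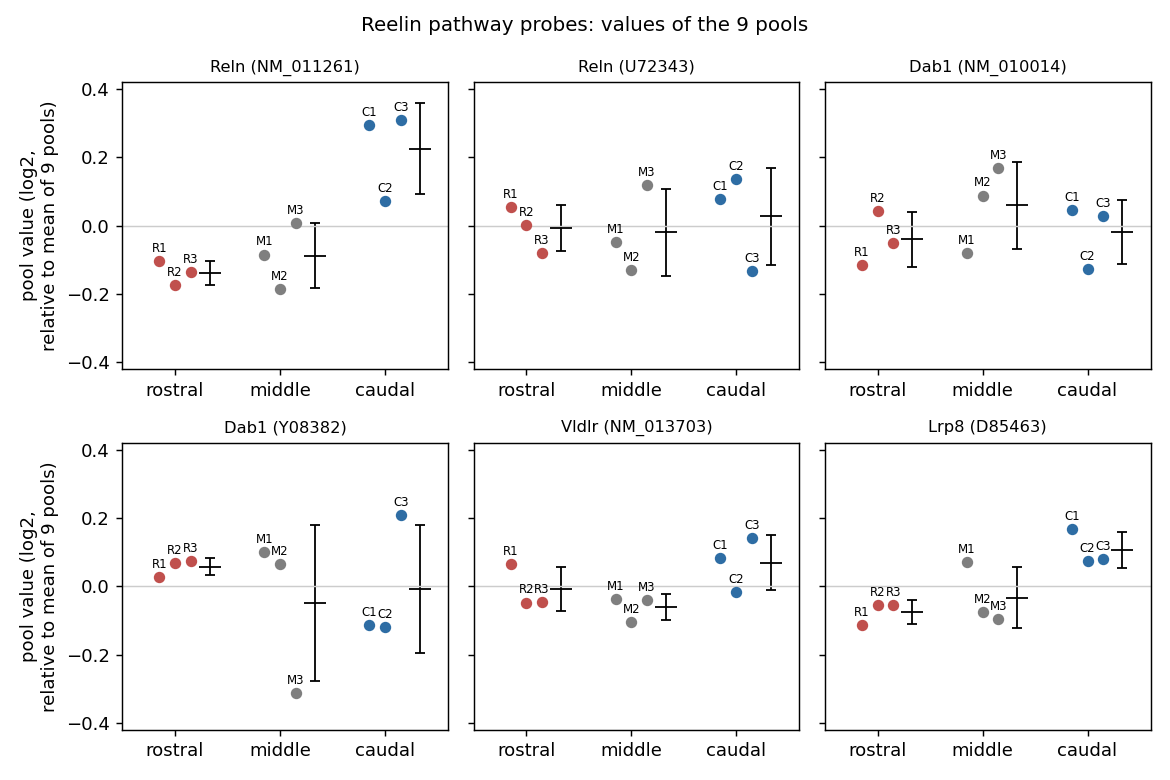
Value of each of the 9 pools (points, log2 relative to the mean of the 9 pools) for the 6 probes of Reln, Dab1, Vldlr and Lrp8, with the mean and SD of the 3 pools of each region as a line and bar beside them. The 3 caudal pools lie above all rostral and middle pools on the Reln probe NM_011261, where they reach 0.31, and on the Lrp8 probe, where the gap between M1 and C2 is small.

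The single arrays, to which the pool values were fitted, gave the same order for this probe where rostral and caudal pools met. They are therefore no separate evidence for it. Rostral over caudal ratios, with each array centred on its median, were -0.45 (R2 with C1), -0.28 (R1 with C2), -0.63 (R2 with C3), -0.22 (R1 with C3), -0.39 (R3 with C2) and -0.39 (R3 with C1). All 6 were below 0, in both dye orientations, with a mean of -0.39 ± 0.14 (SD, n = 6 arrays). Middle over caudal ratios were 0.09 (M3 with C2), -0.45 (M3 with C1), -0.39 (M2 with C1), -0.59 (M2 with C3), -0.35 (M1 with C3) and -0.03 (M1 with C2). The 2 arrays nearest to 0 were those that carried C2, the caudal pool with the lowest Reln value. Rostral over middle ratios were -0.33 (R2 with M3), 0.03 (R1 with M3), 0.28 (R3 with M2), -0.15 (R3 with M1), 0.18 (R2 with M1) and -0.15 (R1 with M2), with 3 arrays on each side of 0.

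On the probe made to record U72343 (CG_Mm_3007445_1), Reln did not separate the regions. Rostral pools stood at 0.06, 0.00 and -0.08, middle pools at -0.05, -0.13 and 0.12, and caudal pools at 0.08, 0.14 and -0.13. All 3 regions overlapped, and the highest and the lowest of the 9 pools, C2 and C3, were both caudal. The regional means were -0.01 ± 0.07 for rostral, -0.02 ± 0.13 for middle and 0.03 ± 0.14 for caudal pools (SD, n = 3 each).

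The rostral minus caudal difference of the U72343 probe was -0.04 ± 0.10 (SE; 95% interval -0.26 to 0.19; limma, adjusted p = 0.972). Its rostral minus middle difference was 0.01 ± 0.10 (SE; 95% interval -0.21 to 0.24; limma, adjusted p = 0.999), and middle minus caudal was -0.05 ± 0.10 (SE; 95% interval -0.27 to 0.18; limma, adjusted p = 0.995). The intervals leave room for a moderate difference in either direction. The estimate of the NM_011261 probe for rostral against caudal lies outside this probe's interval, but its own interval, -0.56 to -0.17, overlaps it.

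Where rostral and caudal pools met on an array, the U72343 probe read -0.32 (R2 with C1), 0.06 (R1 with C2), 0.26 (R2 with C3), 0.32 (R1 with C3), -0.44 (R3 with C2) and -0.32 (R3 with C1). Both arrays with C3 were above 0 and both with C1 below, and the arrays with C2 fell on either side. The spread of these 6 ratios was an SD of 0.33, against 0.14 for the NM_011261 probe. Middle over caudal ratios stayed between -0.11 and 0.16 over 6 arrays. Rostral over middle ratios lay between -0.13 and 0.04 on 5 arrays and reached 0.53 on the array of R3 with M2. Around the fitted pool values the arrays scattered with an SD of 0.270 for U72343 and 0.165 for NM_011261, where the median over all features was 0.256.

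**Figure D2:**
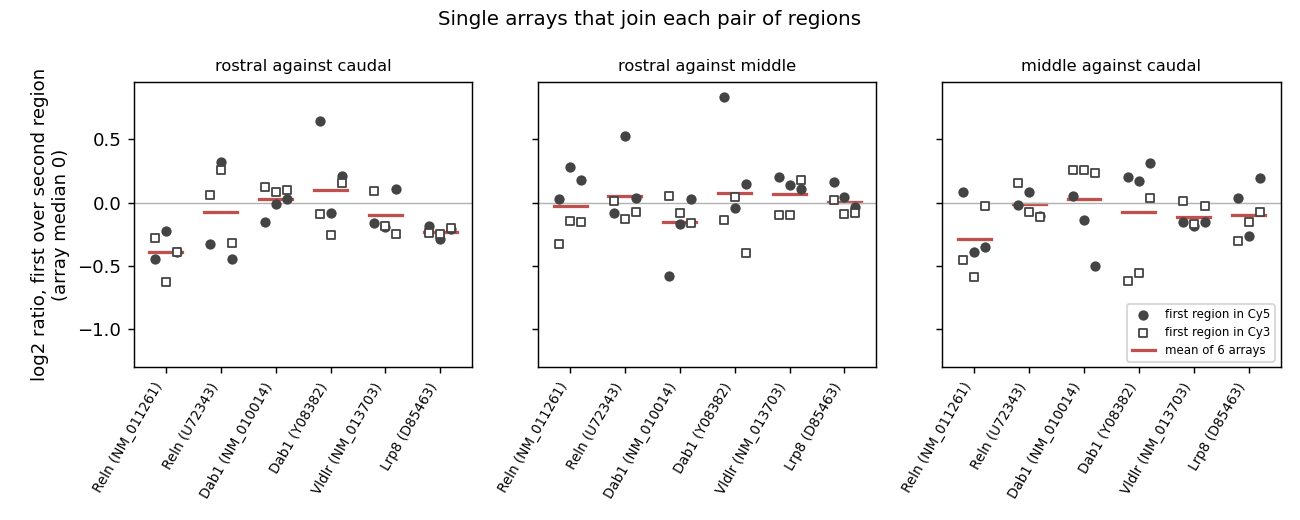
Centred log2 ratio of each single array that joins a pair of regions, first region over second, for the 6 probes, with filled circles where the first region was in Cy5, open squares where it was in Cy3, and a bar at the mean of the 6 arrays. In rostral against caudal, all 6 arrays lie below 0 for the Reln probe NM_011261 and for Lrp8, whereas the other probes have arrays on both sides.

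Set against each other over the 9 pools, the Reln probes had a Pearson r of 0.161 (exact permutation p = 0.660) and a Spearman rho of 0.267 (exact permutation p = 0.493). Adjusted over the 2 such relations computed, for Reln and for Dab1, these were 0.660 and 0.613. On the NM_011261 probe C1 and C3 lie farthest from its median, and without them r was 0.846 over the other 7 pools. These are also the pools in which the probes differ most, so that a higher r follows from leaving them out. The NM_011261 value minus the U72343 value was 0.22 in C1 and 0.44 in C3, and lay between -0.17 and -0.04 in the other 7 pools. By region, that difference averaged -0.13 ± 0.06 in rostral and 0.20 ± 0.26 in caudal pools (SD, n = 3 each; exact permutation test, p = 0.2, where 0.1 is the smallest p the design allows). A regional difference between the probes could therefore not pass 0.05 in this test. The 9 pool values of each probe come from the same 18 arrays.

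**Figure D3:**
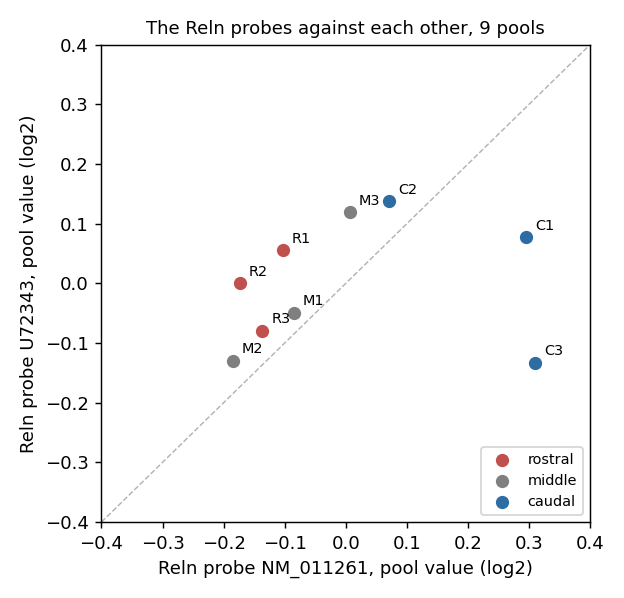
Value of each of the 9 pools on the Reln probe NM_011261 (x axis, log2) against the Reln probe U72343 (y axis, log2), coloured by region, with a dashed line of equality. C1 and C3 lie far to the right of the line and the other 7 pools lie on its upper side.

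For both receptor genes, Lrp8 and Vldlr, caudal pools had the highest mean, and no difference passed. Lrp8 was measured by 1 probe, made to record D85463 (CG_Mm_EXT_3106615_1). Rostral pools stood at -0.11, -0.05 and -0.05, middle pools at 0.070, -0.07 and -0.09, and caudal pools at 0.17, 0.074 and 0.079. Every caudal pool again lay above every rostral and middle pool, but the gap between M1 and C2 was only in the third decimal. The regional means were -0.07 ± 0.03 for rostral, -0.03 ± 0.09 for middle and 0.11 ± 0.05 for caudal pools (SD, n = 3 each).

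Rostral pools were 1.13-fold below caudal pools for Lrp8, at -0.18 ± 0.06 (SE; 95% interval -0.33 to -0.04; limma, unadjusted p = 0.0208, adjusted p = 0.470). This ranked 819th of 18525 features and did not pass. The middle minus caudal difference was -0.14 ± 0.06 (SE; 95% interval -0.28 to 0.0047; limma, unadjusted p = 0.0561, adjusted p = 0.995). The rostral minus middle difference was -0.04 ± 0.06 (SE; 95% interval -0.19 to 0.10; limma, adjusted p = 0.999). The order was therefore caudal, middle, rostral, with only the outer regions apart beyond the unadjusted threshold, and with rostral above middle, at 0.060, when arrays were not centred.

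On single arrays, rostral over caudal Lrp8 ratios were -0.19 (R2 with C1), -0.24 (R1 with C2), -0.25 (R2 with C3), -0.29 (R1 with C3), -0.21 (R3 with C2) and -0.20 (R3 with C1). All 6 were below 0, with a mean of -0.23 ± 0.04 (SD, n = 6 arrays). These ratios still carry the dye effect, and with it removed the 6 ran from -0.33 to -0.15. Middle over caudal ratios spanned -0.30 to 0.19, with 4 of 6 below 0, and rostral over middle ratios spanned -0.09 to 0.17, with 3 of 6 below 0. The Lrp8 probe was among the less noisy ones, with a scatter of 0.121 around the fitted values, and 75.1% of features had a larger one.

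Vldlr, the other receptor gene, was measured by 1 probe, made to record NM_013703 (CG_Mm_3006251_1). Rostral pools stood at 0.07, -0.05 and -0.04, middle pools at -0.04, -0.10 and -0.04, and caudal pools at 0.08, -0.02 and 0.14. Every caudal pool lay above every middle pool, and R1 lay among the caudal pools. The order of middle below caudal pools without overlap was found for 3 of the 6 member probes, Vldlr, Reln NM_011261 and Lrp8, and for 4.38% of all features. The regional means were -0.01 ± 0.07 for rostral, -0.06 ± 0.04 for middle and 0.07 ± 0.08 for caudal pools (SD, n = 3 each).

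For Vldlr the rostral minus caudal difference was -0.08 ± 0.06 (SE; 95% interval -0.22 to 0.07; limma, unadjusted p = 0.247, adjusted p = 0.888). The middle minus caudal difference was -0.13 ± 0.06 (SE; 95% interval -0.28 to 0.01; limma, unadjusted p = 0.0710, adjusted p = 0.995), and 5 of the 6 arrays that join these regions were below 0, from -0.18 to -0.03, with the remaining one at 0.02. The rostral minus middle difference was 0.05 ± 0.06 (SE; 95% interval -0.09 to 0.20; limma, adjusted p = 0.999). The order for Vldlr was caudal, rostral, middle, and no neighbours in it differed by the test. Single pools weighed on its sizes: rostral minus middle was 0.0075 without R1, 0.025 without M2 and 0.033 without C2, and rostral minus caudal was -0.13 without C2 and -0.03 without C3. Vldlr was measured as tightly as Lrp8, with a scatter of 0.122 between arrays. Its interval rests on the spread between pools, and a rostral minus caudal difference beyond -0.22 or 0.07 lies outside it.

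The adaptor gene Dab1 showed no regional order on either of its probes. On the probe made to record NM_010014 (CG_Mm_3006553_1), rostral pools stood at -0.12, 0.04 and -0.05, middle pools at -0.08, 0.09 and 0.17, and caudal pools at 0.04, -0.13 and 0.03. All 3 regions overlapped. The regional means were -0.04 ± 0.08 for rostral, 0.06 ± 0.13 for middle and -0.02 ± 0.09 for caudal pools (SD, n = 3 each). The rostral minus caudal difference was -0.02 ± 0.09 (SE; 95% interval -0.22 to 0.18; limma, adjusted p = 0.981), rostral minus middle was -0.10 ± 0.09 (SE; 95% interval -0.30 to 0.10; limma, adjusted p = 0.999) and middle minus caudal was 0.08 ± 0.09 (SE; 95% interval -0.12 to 0.28; limma, adjusted p = 0.995).

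On the Dab1 probe made to record Y08382 (CG_Mm_3007052_1), rostral pools stood at 0.03, 0.07 and 0.07, middle pools at 0.10, 0.06 and -0.31, and caudal pools at -0.11, -0.12 and 0.21. The rostral pools were close together, while M3 stood far below the other middle pools and C3 far above the other caudal ones. The regional means were 0.06 ± 0.02 for rostral, -0.05 ± 0.23 for middle and -0.01 ± 0.19 for caudal pools (SD, n = 3 each). The rostral minus caudal difference was 0.06 ± 0.13 (SE; 95% interval -0.25 to 0.38; limma, adjusted p = 0.962), rostral minus middle was 0.11 ± 0.13 (SE; 95% interval -0.21 to 0.42; limma, adjusted p = 0.999) and middle minus caudal was -0.04 ± 0.13 (SE; 95% interval -0.36 to 0.27; limma, adjusted p = 0.995). These were the widest intervals among the 6 probes.

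The Dab1 probes did not follow each other over the 9 pools, with a Pearson r of -0.351 (exact permutation p = 0.358, adjusted p = 0.660 over the 2 relations) and a Spearman rho of -0.2 (exact permutation p = 0.613, adjusted p = 0.613). Without C2 and M3, the pools farthest from the median on the NM_010014 probe, r was -0.07 (exact permutation p = 0.891). The largest gap was in M3, which was the highest pool on NM_010014 at 0.17 and the lowest on Y08382 at -0.31. On the array of R1 with M3 the NM_010014 probe gave a rostral over middle ratio of -0.58 and the Y08382 probe one of 0.83. Each probe also had a dye effect, of -0.13 for NM_010014 and 0.23 for Y08382, which the pool values take out. The difference between the probes was -0.10 ± 0.06 in rostral and -0.01 ± 0.17 in caudal pools (SD, n = 3 each; exact permutation test, p = 0.6).

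**Figure D4:**
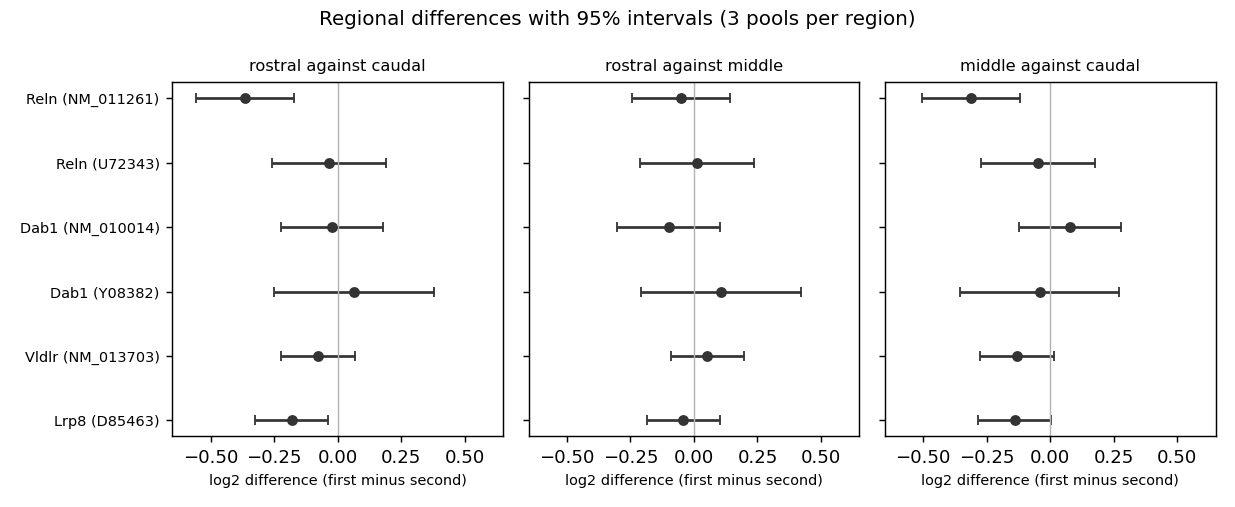
Estimated log2 difference (point) with its 95% interval (bar) for the 6 probes in rostral minus caudal, rostral minus middle and middle minus caudal pools. The intervals of the Reln probe NM_011261 lie below 0 in both comparisons with caudal pools and that of Lrp8 in rostral minus caudal, and the other intervals cross 0.

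Taken as a group, the members were counted against the whole array. In rostral against caudal pools, 2 of the 6 probes had an unadjusted p under 0.05, Reln NM_011261 and Lrp8, where 7.9% of all features did. In middle against caudal it was 1 of 6, Reln NM_011261, where 4.86% did, and in rostral against middle 0 of 6, where 5.25% did. Every rostral pool lay below every caudal pool for the same 2 probes, a pattern that 5.89% of features had, and for both of them every middle pool also lay below every caudal pool, which 1.51% of features had. The rostral over caudal ratio was below 0 on all 6 arrays for these 2 probes, as for 4.67% of the 14654 features with values on all 6. The median rostral minus caudal difference of the 6 probes was -0.06, with 5 below and 1 above 0, beside a median of 0.00 over all features. In rostral against middle the median was -0.01, with 3 probes on each side, and in middle against caudal it was -0.09, with 5 below and 1 above 0. Since 2 of the 4 genes are each counted through 2 probes, these are counts of probes and not of independent genes.

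The features whose 9 pool values were most like those of each member probe were sought among 10382 or 10383 features with 1 gene symbol and a value on all 18 arrays. Likeness was measured by Pearson r over the 9 pools, which share their arrays, and with so many features and so few pools high values are found for any probe. Most like Reln NM_011261 were Morc1 (r = 0.960), a gene of spermatogenesis, Neb (r = 0.959), which encodes the muscle protein nebulin, Psg23 (r = 0.940), a pregnancy-specific glycoprotein gene, and Eif4a2 (r = 0.940), which encodes a translation initiation helicase. Most like Reln U72343 were Them5 (r = 0.947), Tmem35a (r = 0.910), an immunoglobulin kappa variable segment (probe CG_Mm_EXT_3102417_1, r = 0.892) and Rapgef1 (r = 0.889). Rapgef1 encodes an exchange factor that acts below Crk in reelin signalling, and was on a list of pathway genes.

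Most like Lrp8 were Tradd (r = 0.937), Add3 (r = 0.908), Bysl (r = 0.899) and Rhpn1 (r = 0.892). Most like Vldlr were Nf2 (r = 0.948), Supt20 (r = 0.938), Emcn (r = 0.919) and Zfp266 (r = 0.900). Most like Dab1 NM_010014 were Nes (r = 0.965), which encodes the radial glial filament nestin, Actn4 (r = 0.960), Wfdc15b (r = 0.947) and Stxbp3 (r = 0.944). Most like Dab1 Y08382 were D330050I16Rik (r = 0.923), Lamc3 (r = 0.902), Dhx16 (r = 0.889) and Tcrb-V8.2 (r = 0.880). No gene stood among the closest for both probes of Reln or for both probes of Dab1. That follows from the r between the probes, 0.161 for Reln and -0.351 for Dab1, and is no separate observation.

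Below the receptors, the genes of reelin signal transduction showed no difference that passed. Of 27 listed kinases, adaptors and effectors 26 were measured, 16 were below and 10 above 0 in rostral minus caudal, and their median difference was -0.04. The 3 with the lowest p were Gsk3b, a kinase that phosphorylates tau (-0.27 ± 0.06), Cfl1, the actin-severing cofilin (-0.19 ± 0.06), and Mapt, which encodes tau (-0.16 ± 0.06; SE; limma, adjusted p = 0.239, 0.379 and 0.566). The other 2 Gsk3b probes were at -0.03 and 0.14, so the gene's probes did not share a direction. Fyn, the kinase chiefly responsible for phosphorylating Dab1, was at 0.04 ± 0.07, and Crk, an adaptor that docks to phosphorylated Dab1, at -0.06 ± 0.07 (SE; limma, adjusted p = 0.956 and 0.930).

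The product of Pafah1b1, Lis1, binds phosphorylated Dab1 and regulates dynein, and all 11 genes listed with its complex were measured. In rostral minus caudal 6 were below and 5 above 0, with a median of -0.03. Ywhae, which encodes a 14-3-3 protein that protects phosphorylated Ndel1, was at 0.27 ± 0.07, and the catalytic subunit genes Pafah1b2 and Pafah1b3 were at -0.15 ± 0.05 and -0.19 ± 0.07 (SE; limma, adjusted p = 0.344, 0.447 and 0.497). Pafah1b1 itself was at -0.06 ± 0.10 (SE; limma, adjusted p = 0.956).

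Of 18 genes for the processing and turnover of reelin, its receptors and Dab1, 13 were measured, 8 below and 5 above 0 in rostral minus caudal, with a median of -0.01. Those with the lowest p were Socs2, a suppressor of cytokine signalling (-0.43 ± 0.09), Dab2, an adaptor related to Dab1 (-0.39 ± 0.09, and -0.19 on its other probe), and Plat, which encodes tissue plasminogen activator, a protease that can cleave reelin (-0.18 ± 0.07; SE; limma, adjusted p = 0.204, 0.233 and 0.533). Of 12 other LDL receptor family genes 7 were measured, 4 below and 3 above 0, with a median of 0.00, and Lrp1b (-0.19), Lrp2 (-0.15) and Lrp5 (0.11) led them. Of 8 genes for other ligands of the receptors 7 were measured, 6 below and 1 above 0, with a median of -0.11, and Selenop (-0.22 ± 0.10), Thbs1 (-0.15 ± 0.08) and Apoe (-0.11 ± 0.06) led them (SE; limma, adjusted p = 0.659, 0.758 and 0.770). None of the genes in these 5 pathway lists passed in any of the 3 comparisons.

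**Figure D5:**
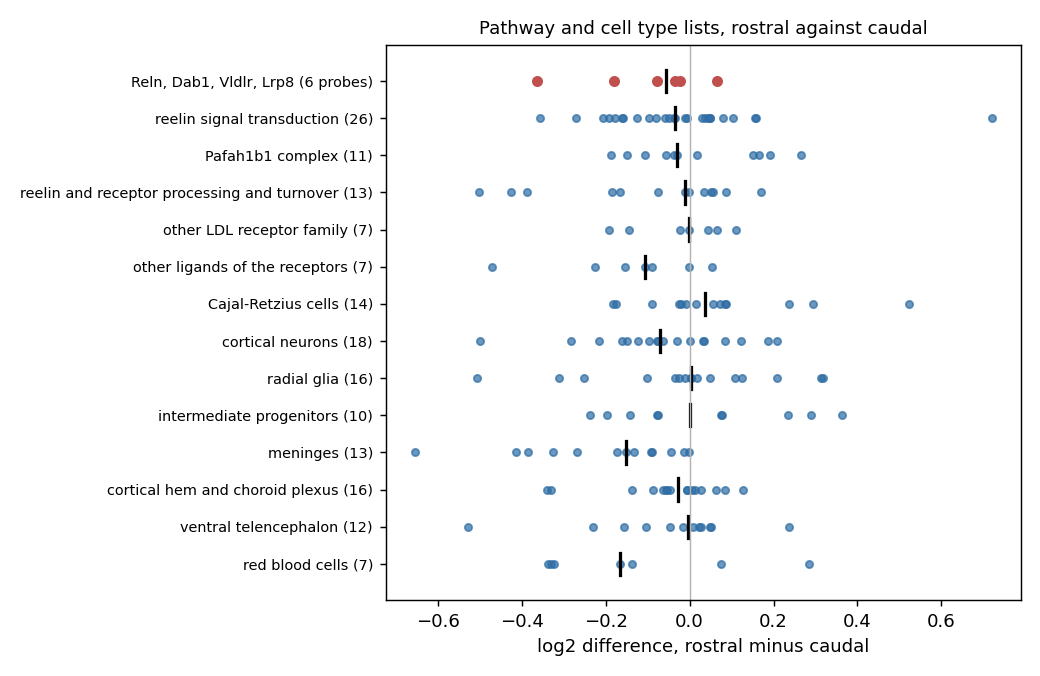
Rostral minus caudal log2 difference of the 6 probes of Reln, Dab1, Vldlr and Lrp8 (red, top row) and of the measured genes of each pathway and cell type list (blue, 1 point per gene, number of genes in brackets), with a black bar at the median. The meninges are the one list with all 13 genes below 0, and the medians of the reelin pathway lists lie between -0.11 and 0.00.

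Reln RNA in this tissue is expected chiefly from Cajal-Retzius cells, so their other markers were set beside it. Some of these markers are also on the cortical neuron or the ventral telencephalon list below, so they are not particular to these cells. Of 19 markers 14 were measured, 6 below and 8 above 0 in rostral minus caudal, with a median of 0.04, beside -0.36 for the NM_011261 and -0.04 for the U72343 probe of Reln. Calb1 (-0.18 ± 0.08) and Cxcr4 (-0.18 ± 0.08), the receptor that keeps these cells under the meninges, had the lowest p with Zic1 (0.29 ± 0.13), a zinc finger transcription factor gene, and none passed (SE; limma, adjusted p = 0.633, 0.650 and 0.656). Trp73, the marker of hem-derived Cajal-Retzius cells, was at -0.01 ± 0.11, and Calb2, which encodes calretinin, at 0.01 ± 0.08 (SE; limma, adjusted p = 0.996 and 0.988). The median of the markers was 0.02, 0.07 and -0.03 in the rostral pools, -0.01, -0.03 and 0.06 in the middle pools and 0.02, -0.05 and -0.02 in the caudal pools. C1 and C3, the pools with the highest Reln values on NM_011261, thus had marker medians of 0.02 and -0.02. The part of Cajal-Retzius cells in the Reln values was not tested.

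Markers of the meninges, the membranes over the cortex that border the marginal zone, were set beside Reln as well. Of 16 markers 13 were measured and all 13 were below 0 in rostral minus caudal pools, with a median of -0.15, though none passed. Ptgds, Dcn and Cxcl12, the chemokine that holds Cajal-Retzius cells at the surface, were at -0.66 ± 0.13, -0.39 ± 0.09 and -0.27 ± 0.07 (SE; limma, adjusted p = 0.188, 0.233 and 0.310). The median of the 13 was -0.01, -0.10 and -0.14 in rostral, 0.02, -0.04 and 0.04 in middle and 0.07, 0.01 and 0.13 in caudal pools. C2 was the lowest of the caudal pools and the rostral pools lay below them all, as on Reln NM_011261, but M1 and M3 lay above C2, whereas on Reln NM_011261 every middle pool lay below every caudal pool. The part of meningeal tissue in the Reln and Lrp8 values was not tested.

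In rostral minus caudal pools the other cell type lists showed less of a common direction. Radial glia had 16 of 16 markers measured, with 7 below and 9 above 0 and a median of 0.00. Vim, which encodes vimentin of radial glia and of meningeal cells, was the 1 listed gene that passed, at -0.51 ± 0.05 (SE; limma, adjusted p = 0.0389), while Slc1a3 (0.32 ± 0.05) and Lhx2 (-0.31 ± 0.07) had the next lowest p and did not. Cortical neurons had 18 of 18 measured, with 11 below and 7 above 0 and a median of -0.07, led by Fezf2 (-0.28 ± 0.05), Bcl11b (0.21 ± 0.05, and 0.46 on its other probe) and Neurod6 (0.19 ± 0.06). Intermediate progenitors had 10 of 10 measured, 5 in each direction, with a median of 0.00, led by Insm1 (0.29), Gadd45g (-0.24) and Btg2 (0.23).

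Of the neighbouring tissues, the cortical hem and choroid plexus had 16 of 17 markers measured, with 10 below and 6 above 0 and a median of -0.03, led by Rspo3 (-0.14), Wnt5a (-0.09) and Wnt8b (0.08). In middle minus caudal, 13 of these 16 were below and 3 above 0, with a median of -0.11, and none passed. For the meninges that comparison had 11 below and 2 above 0, with a median of -0.07. The part of either tissue in the member values was not tested. The ventral telencephalon had 12 of 14 measured, 6 in each direction, with a median of 0.00, led by Gsx2 (-0.53), Sst (-0.16) and Dlx5 (-0.23). Red blood cells had 7 of 10 measured, with 5 below and 2 above 0 and a median of -0.17, led by Alas2 (-0.32), Hbb-y (-0.33) and Epb42 (-0.14). The Gapdh control spots of the array, which were kept out of the centring, had pool medians of -0.09, -0.04 and -0.15 in rostral, 0.07, 0.09 and 0.08 in middle and -0.14, 0.03 and 0.15 in caudal pools, so rostral pools were below all middle ones and caudal pools spread on both sides. With the Gapdh value as a covariate, the rostral minus caudal difference was -0.37 for Reln NM_011261 and -0.22 for Lrp8.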

How the data were processed

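The authors deposited log2 ratios for 21998 probes on 18 arrays. How they scanned, corrected, filtered and normalized the arrays is not given in the sources used here. The ratio was taken as Cy5 to Cy3, which no label states. Gene symbols come from GEO's platform annotation: of the 21766 probes that are not control spots, 16632 had 1 symbol, 139 had several and 4995 are unnamed here. The 1477 capped ratios, above 16 on the log2 scale, were dropped, which was decided with the values in view. An array then held between 18085 and 20693 values, and the number of pools limits the precision of the regional tests. Array medians lay between -0.09 and 0.61, and each array was centred on its median over probes other than the 232 Gapdh control spots. Features needed at least 12 arrays and 2 per pool.

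For each feature a least-squares fit gave a value for every pool, with their sum held at 0, and a dye effect. Regions were compared on the 9 pool values in limma 3.58.1 under R 4.3.3, with 6 residual and 1.26 prior degrees of freedom. Tests were two-sided and adjusted by Benjamini and Hochberg over 18525 features, and 0.05 was the threshold. The fit was tested on simulated data. The labels do not say that the pool numbers pair pools, so they were not taken as pairs. Pools with the same number were never on 1 array, and the correlations of their deviations from the region means lay between -0.43 and -0.06. Since such pools share no array, the errors of the fit alone lower these correlations, which therefore cannot decide whether pools were paired. The 4 genes, the lists and the tests were chosen with earlier results of these data known. The genes named are every member probe, per list the 3 genes with the lowest unadjusted p in rostral against caudal pools and any that passed, and per member the 4 most alike features. In addition Fyn, Crk, Pafah1b1, Trp73 and Calb2 were named for their role, after their values were seen. In a list, each gene was read from its feature measured on the most arrays. The alternatives covered centring, scaling, the filter on arrays, capped values, the dye term, a Gapdh covariate, arrays as samples, a pool number block, the 6 arrays of a pair alone, and leaving out each pool.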

Additional observations from a re-analysis of the deposited data

Results flagged for a closer look

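In 18 sets of 6 arrays, 1 set per probe and pair of regions, 2 single arrays lay far from the other 5 by Dixon's test, where chance gives about 5% of sets. The Dab1 probe NM_010014 read -0.577 in rostral over middle on the array of R1 with M3, while its other 5 arrays lay between -0.168 and 0.052. The ratios tested still carried the dye effect, which was -0.128 for this probe. With it removed, that array read -0.449 and the other 5 lay between -0.284 and 0.157, so it no longer stood far apart. On that same array the Dab1 probe Y08382 read 0.834, in the opposite direction. The Reln probe U72343 read 0.528 in rostral over middle on the array of R3 with M2, while its other 5 arrays lay between -0.125 and 0.037. The Reln probe NM_011261 read 0.279 there, its highest value among the 6 rostral over middle arrays.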

How the results depend on the processing

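Over 19 alternatives, Reln NM_011261 stayed below 0 in rostral against caudal (-0.44 to -0.32; adjusted p 0.00176 to 0.834) and in middle against caudal (-0.49 to -0.26; adjusted p 0.0125 to 0.9999), as did Lrp8 (-0.25 to -0.15; adjusted p 0.0174 to 0.999, and -0.31 to -0.09). Vldlr kept its direction but not its size, at -0.15 to -0.03 in rostral against caudal, 0.0075 to 0.15 in rostral against middle and -0.30 to -0.10 in middle against caudal. The calls changed only with arrays as the samples, which counts 18 arrays of 9 pools as independent: 2 member probes then passed in rostral against caudal, Reln NM_011261 and Lrp8, 1 in middle against caudal, Reln NM_011261, and 2 in the test for any difference. Over all features that setting called 1274 in rostral against caudal, 653 in rostral against middle, 462 in middle against caudal and 1436 for any difference. The 12 features that passed in rostral against caudal became 0 without centring, with the Gapdh covariate, with the pool number as a replicate block or with the 6 arrays alone. Their number was 8 with scaling, 46 with features on all 18 arrays and 7 with no minimum number of arrays. When a pool was left out it was 0 to 4. The 2 that passed for any difference became 20 with features on all 18 arrays, and 0 without centring, with scaling, with no minimum, with capped ratios kept, with the covariate, with the block or without any 1 pool. The block changed no call of a member, with Reln NM_011261 at an adjusted p of 0.520 in rostral against caudal. 0 of 9 pairs of same-numbered pools correlated above 0.1, and 0 pools correlated best with their own number. Such pools never shared an array, which by itself lowers these correlations, so neither count can decide whether the numbers pair pools.

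Small differences changed sign. Leaving out the centring moves every member probe by the same amount within a comparison, so differences smaller than that shift can change sign. Causes of the other changes were not tested. Without centring, which moved the median feature by -0.07 in rostral against caudal, 0.10 in rostral against middle and -0.17 in middle against caudal, Dab1 Y08382 was at -0.0089 in rostral against caudal, Dab1 NM_010014 at 0.0015 in rostral against middle and -0.10 in middle against caudal, Reln NM_011261 at 0.051 and Lrp8 at 0.060 in rostral against middle. With the Gapdh covariate Reln U72343 was at -0.068 in rostral against middle. With 6 arrays alone Dab1 NM_010014 was at 0.028 in rostral against caudal and Lrp8 at 0.0048 in rostral against middle. Leaving out 1 pool gave Reln U72343 -0.134 to 0.028 in rostral against caudal, -0.058 to 0.073 in rostral against middle and -0.13 to 0.0076 in middle against caudal, Dab1 NM_010014 -0.081 to 0.0075 in rostral against caudal, Dab1 Y08382 -0.020 to 0.17, -0.023 to 0.19 and -0.13 to 0.091 in the same 3 comparisons, and Lrp8 -0.084 to 0.0010 in rostral against middle.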
